A study of Mus musculus with 12 samples.

Results

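Of the genes that mark the oligodendrocyte lineage, 9 were followed on the arrays, out of 19057 genes that had a probe with a single symbol. Probes were matched to them by symbol, with no threshold on signal: 4 genes of oligodendrocyte precursors (*Olig1*, *Olig2*, *Sox10* and *Pdgfra*) and 5 genes of myelinating oligodendrocytes (*Mbp*, *Mog*, *Mag*, *Cnp* and *Mobp*). For a gene with several probes, the one of highest mean signal was used. Total RNA had been hybridised to Illumina MouseWG-6 v2.0 BeadChips in 3 groups of 4 samples. Medulloblastomas (MBs) were dissected from symptomatic mice with a single mutant copy of *Ptch* (*Ptch+/-* MB), a gene for the receptor that restrains Sonic hedgehog (Shh) signalling, or from such mice that also lacked *Ndp* (*NdpKO;Ptch+/-* MB). *Ndp*, on the X chromosome, encodes the ligand Norrin, and its mutant allele is a germline disruption by a lacZ cassette, so it is lost from all cells and all compound mutants are *Ndp-/y* males, while other genotypes include both sexes. The reference was wild-type granule neuron progenitors (WT GNP), the cells from which Shh tumors arise, taken at postnatal day 6 and enriched over a percoll gradient with pre-plating. Strain background is recorded as mixed for *NdpKO;Ptch+/-* MBs and as C57Bl/6 for *Ptch+/-* MBs and WT GNPs, although the methods state that compound mutants had controls of their own breeding cohort. Ages of the tumor mice are not given in the sources used here, nor whether each tumor came from a different mouse, so p-values speak only of the spread among the samples at hand, which may be technical in part. Age, dissection against cell isolation, and tumor against normal cells all differ together between MBs and WT GNPs, and their parts in a difference cannot be told apart. Between the tumor genotypes, recorded strain differs along with the loss of *Ndp*, and sex may differ. The paper also reports a shorter mean latency of MBs in compound mutants, so age may differ too. In a difference between the tumor genotypes, the parts of these and of *Ndp* cannot be told apart.

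Oligodendrocytes wrap axons of the central nervous system in myelin. Their precursors divide in response to PDGF-A through the receptor encoded by *Pdgfra* and depend on the transcription factors OLIG1, OLIG2 and SOX10. When a precursor differentiates it shuts off *Pdgfra*, passes through a short premyelinating stage, and then makes the proteins and lipids of the myelin sheath, while *Sox10* and the *Olig* genes remain on. In the rodent cerebellum, precursors are spread through the tissue before birth and myelin forms in the white matter during the first postnatal weeks.

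The deposited values are log2 signals after background correction and quantile normalisation by the authors, with an array median of 4.15. Signals under 4.5 on this scale were treated as background, a bound called the limit from here on, and 31.8% to 32.5% of the probes of an array reached it. Arrays within a group correlated across probes at Pearson's r of 0.984 to 0.996. The probes of the granule lineage genes *Zic1* and *Barhl1* were bright in all groups, at 13.60 to 14.32 and 11.03 to 11.91 on the log2 scale. Being bright in every group, they could not show an exchange of labels between arrays. The probe of *Atoh1*, the defining gene of GNPs, was under the limit on all 12 arrays and gave no level. Groups were compared with limma, and a gene was called higher or lower at a Benjamini-Hochberg adjusted p under 0.05. WT GNPs are the reference in both comparisons with tumors, which therefore share 4 arrays.

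The precursor genes split in the tumors. *Olig1* and *Pdgfra* were higher in both kinds of MB than in WT GNPs, *Sox10* was at a similar mean level in all 3 groups but with a wide interval, and the probe for *Olig2* stayed near background. *Olig1*, a basic helix-loop-helix factor of the whole lineage, had log2 signals of 13.50, 13.00, 13.31 and 13.30 in *NdpKO;Ptch+/-* MBs 1 to 4. The values were 12.68, 13.26, 13.53 and 13.57 in *Ptch+/-* MBs and 11.03, 11.56, 11.99 and 12.19 in WT GNPs. Every tumor lay above every WT GNP sample, while the ranges of the tumor genotypes overlapped. The log2 fold change against WT GNPs was 1.58 (SE 0.27, adjusted p = 0.00438) in *NdpKO;Ptch+/-* MBs, or 3.00-fold, and 1.57 (SE 0.27, adjusted p = 0.0035) in *Ptch+/-* MBs, or 2.96-fold. In RNA from whole tissue or mixed cells, a change in the number of cells of a type and a change in RNA per cell cannot be told apart.

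*Pdgfra*, the receptor for PDGF-A, had log2 signals of 12.11, 11.52, 12.19 and 12.16 in *NdpKO;Ptch+/-* MBs and 11.92, 12.45, 12.59 and 11.96 in *Ptch+/-* MBs. The WT GNP samples lay close together at 11.30, 11.40, 11.31 and 11.38, all under the lowest tumor. It was 1.57-fold higher in *NdpKO;Ptch+/-* MBs (log2 fold change 0.65, SE 0.18, adjusted p = 0.0489) and 1.85-fold higher in *Ptch+/-* MBs (0.88, SE 0.18, adjusted p = 0.0092). The first of these calls sat at the threshold and was lost in 9 of 15 alternative fits, with adjusted p between 0.0115 and 0.121. *Pdgfra* is also a gene of fibroblasts. The summed level of 8 fibroblast and meningeal genes, as their mean log2 signal, was 5.12 to 5.53 in *NdpKO;Ptch+/-* MBs, 5.57 to 6.24 in *Ptch+/-* MBs and 5.99 to 6.26 in WT GNPs. Of these 8 genes none was higher in tumors, 2 were lower in *NdpKO;Ptch+/-* MBs and 1 in *Ptch+/-* MBs. Of all genes, 7.98% and 10.9% were lower in these 2 comparisons. *Pdgfrb* was under the limit on all arrays. Their part in the *Pdgfra* result was not tested.

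*Sox10*, which encodes the SRY-related factor that drives myelin gene transcription, did not differ between groups beyond its spread. Its log2 signals were 9.70, 9.01, 9.42 and 9.54 in *NdpKO;Ptch+/-* MBs, 7.63, 9.95, 10.13 and 9.59 in *Ptch+/-* MBs, and 8.96, 9.23, 9.78 and 9.82 in WT GNPs. All 3 ranges overlapped, and the array of *Ptch+/-* MB 1 lay far below the rest. The log2 difference from WT GNPs was -0.03 (95% confidence interval -1.15 to 1.09, adjusted p = 0.983) in *NdpKO;Ptch+/-* MBs and -0.12 (-1.24 to 1.00, adjusted p = 0.912) in *Ptch+/-* MBs, so that a change of about 2-fold in either direction remained within the intervals. Without *Ptch+/-* MB 1 the second difference was 0.44 (adjusted p = 0.319).

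*Olig2* has 1 probe, and only *Ptch+/-* MB 3, at 4.86, reached the limit. The other 11 arrays read between 4.13 and 4.46, so the probe gives no level for this gene and no fold is stated. In all, 2 of the 4 precursor genes were higher and none lower in *NdpKO;Ptch+/-* MBs, where 7.69% of all genes were higher and 7.98% lower than in WT GNPs. The count was the same in *Ptch+/-* MBs, where 10.3% of all genes were higher and 10.9% lower. The median log2 fold change of the 4 genes was 0.38 and 0.60 in the 2 comparisons, or 0.32 and 0.49 with signals under the limit set to it, and that of all genes was 0.00 in both.

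**Figure D1:**
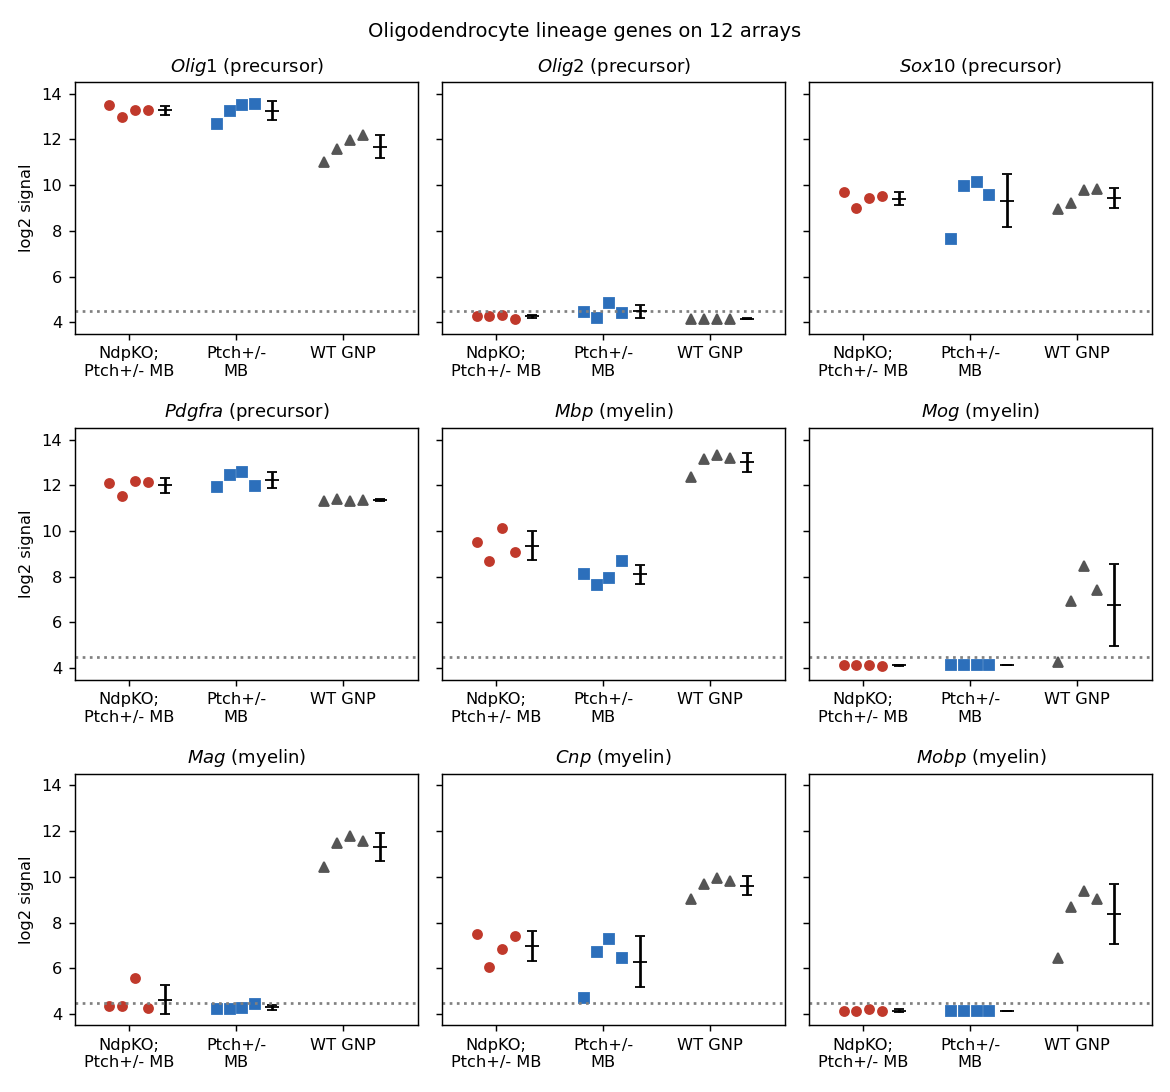
Log2 signal of each of the 9 genes on the 12 arrays, 1 panel per gene, with the arrays of a group in order of replicate number and the mean with SD (n = 4) beside them. The dotted line is the background limit of 4.5. *Olig1* and *Pdgfra* sit higher in tumors than in WT GNPs, all 5 myelin genes sit lower, and *Mog* and *Mobp* lie under the limit in all 8 tumors.

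All 5 myelin genes were lower in both kinds of MB than in WT GNPs. The signals they had to fall from are themselves a feature of the data: the WT GNP preparations carried clear signal for each of the 5, with *Mbp* at 12.38 to 13.31 and *Mag* at 10.42 to 11.80 on the log2 scale. Windows around the start sites of these genes are shown for the 4 that have one among the RefSeq promoter sequences used here (build GRCm38.p6, 250 bases before the start site to 50 after it, on the gene's strand). They lie at chr17:37023349-37023648 on the minus strand for *Mog*, chr7:30914873-30915172 on the minus strand for *Mag*, chr11:100574689-100574988 on the plus strand for *Cnp* and chr9:120149492-120149791 on the plus strand for *Mobp*. Capitals mark ACAAAG, a core sequence that SOX proteins recognise, on either strand, so that it also appears as CTTTGT.
Mog: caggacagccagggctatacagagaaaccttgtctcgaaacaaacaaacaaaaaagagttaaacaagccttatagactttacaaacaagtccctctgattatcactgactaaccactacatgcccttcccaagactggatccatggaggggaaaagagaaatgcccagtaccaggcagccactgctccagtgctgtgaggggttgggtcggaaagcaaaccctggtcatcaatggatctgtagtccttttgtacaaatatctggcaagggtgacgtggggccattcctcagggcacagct
Mag: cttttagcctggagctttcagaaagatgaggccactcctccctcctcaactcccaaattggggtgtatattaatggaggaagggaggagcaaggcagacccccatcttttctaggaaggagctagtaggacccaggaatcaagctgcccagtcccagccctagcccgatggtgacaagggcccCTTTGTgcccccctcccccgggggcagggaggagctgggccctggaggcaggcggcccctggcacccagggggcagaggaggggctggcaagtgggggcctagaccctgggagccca
Cnp: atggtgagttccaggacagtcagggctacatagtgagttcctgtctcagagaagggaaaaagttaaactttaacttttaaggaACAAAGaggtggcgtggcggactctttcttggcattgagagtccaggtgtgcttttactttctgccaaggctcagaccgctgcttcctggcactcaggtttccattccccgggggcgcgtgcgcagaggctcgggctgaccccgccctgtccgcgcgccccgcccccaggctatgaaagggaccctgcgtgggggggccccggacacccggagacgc
Mobp: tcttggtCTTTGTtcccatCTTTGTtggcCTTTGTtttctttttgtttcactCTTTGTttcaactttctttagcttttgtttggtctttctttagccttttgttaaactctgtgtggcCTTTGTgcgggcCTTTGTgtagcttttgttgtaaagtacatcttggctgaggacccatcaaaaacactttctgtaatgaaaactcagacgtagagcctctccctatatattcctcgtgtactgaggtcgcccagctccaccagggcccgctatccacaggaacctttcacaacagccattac
The *Mobp* window held 6 copies, the *Mag* and *Cnp* windows 1 each and the *Mog* window 0, and 18.7% of 27025 promoter windows of the same length held at least 1. The *Olig2* and *Pdgfra* windows held none. The SOX core AACAAT was in the *Olig2* window alone of the 6 members that have a window (10.9% of all windows), and the E-box CAGCTG in none of them (16.1% of all windows). Other short motifs were also looked at and are not reported, and a match of letters is not a measured binding site.

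*Mbp*, which encodes myelin basic protein and holds the layers of the sheath together, had log2 signals of 12.38, 13.15, 13.31 and 13.18 in WT GNPs. They were 9.53, 8.69, 10.15 and 9.08 in *NdpKO;Ptch+/-* MBs and 8.12, 7.65, 7.94 and 8.68 in *Ptch+/-* MBs. All tumors stayed well above background but far below every WT GNP sample. *Mbp* was 12.5-fold lower in *NdpKO;Ptch+/-* MBs (log2 fold change -3.64, SE 0.35, adjusted p = 0.000134) and 30.0-fold lower in *Ptch+/-* MBs (-4.91, SE 0.35, adjusted p = 1.5e-05). With the mean of its 5 probes in place of the brightest one, the log2 fold change was -2.61 in *NdpKO;Ptch+/-* MBs (adjusted p = 3.96e-05) and -2.90 in *Ptch+/-* MBs (adjusted p = 1.41e-05).

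*Mag*, the myelin-associated glycoprotein of the innermost layer that faces the axon, was near or under background in the tumors. It had log2 signals of 10.42, 11.50, 11.80 and 11.58 in WT GNPs. In *NdpKO;Ptch+/-* MBs they were 4.36, 4.36, 5.56 and 4.25, and in *Ptch+/-* MBs 4.22, 4.22, 4.24 and 4.46. Of the tumors only *NdpKO;Ptch+/-* MB 3 reached the limit. *Mag* was at least 94.1-fold lower in *NdpKO;Ptch+/-* MBs (fitted log2 fold change -6.69, SE 0.35, adjusted p = 2.33e-06) and at least 113-fold lower in *Ptch+/-* MBs (-7.04, SE 0.35, adjusted p = 1.37e-06), with tumor signals under the limit taken at the limit.

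*Mobp* and *Mog*, both genes of compact or outer myelin that come on late, were under the limit in all 8 tumors. *Mobp* had log2 signals of 6.45, 8.68, 9.36 and 9.05 in WT GNPs and at most 4.22 in a tumor, so that it was at least 14.8-fold lower in each genotype (adjusted p = 0.000674 in *NdpKO;Ptch+/-* MBs and 0.000474 in *Ptch+/-* MBs). *Mog* had 4.28, 6.93, 8.48 and 7.41 in WT GNPs and at most 4.16 in a tumor. WT GNP 1 was thus itself under the limit for *Mog* and the lowest of its group for *Mobp*. *Mog* was at least 4.84-fold lower in both genotypes (adjusted p = 0.0375 and 0.0294), and this call was lost in 10 of 15 alternative fits of each comparison. Without WT GNP 1 the fitted log2 fold change of *Mog* moved from -2.64 to -3.47 (adjusted p = 0.00018) in *NdpKO;Ptch+/-* MBs and from -2.65 to -3.48 (adjusted p = 0.00013) in *Ptch+/-* MBs. That of *Mobp* moved from -4.24 to -4.88 and from -4.26 to -4.90. With the mean of its probes, *Mobp* gave -3.16 and -3.25.

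*Cnp*, whose product is a phosphodiesterase of noncompact myelin that is made from the late precursor stage on, kept signal in every tumor. Its log2 signals were 7.51, 6.07, 6.85 and 7.42 in *NdpKO;Ptch+/-* MBs, 4.68, 6.71, 7.29 and 6.44 in *Ptch+/-* MBs and 9.02, 9.69, 9.94 and 9.82 in WT GNPs. The tumor genotypes overlapped, and both lay below WT GNPs. *Cnp* was 6.30-fold lower in *NdpKO;Ptch+/-* MBs (log2 fold change -2.65, SE 0.54, adjusted p = 0.0105) and 10.1-fold lower in *Ptch+/-* MBs (-3.34, SE 0.54, adjusted p = 0.00237).

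The fall of 5 of 5 myelin genes compares with 7.98% and 10.9% of all genes lower than in WT GNPs. Shares of all genes called, here and elsewhere, are over 19057 genes, of which 9648 reached the limit on at least 1 array. All 5 myelin genes reached it, and the share called among genes with signal was not counted. The median log2 fold change of the 5 myelin genes was -3.64 in *NdpKO;Ptch+/-* MBs and -4.26 in *Ptch+/-* MBs, or -3.64 and -3.89 with signals under the limit set to it. Of the 21 probes of the 9 genes, 17 reached the limit on at least 1 array. The main exception among them was a second *Mbp* probe, with 9.90, 9.20, 9.85 and 10.31 in *NdpKO;Ptch+/-* MBs, 10.13, 10.26, 10.03 and 10.11 in *Ptch+/-* MBs, and 9.52, 9.52, 9.76 and 9.42 in WT GNPs. It was not lower in tumors, with log2 differences from WT GNPs of 0.26 (adjusted p = 0.46) and 0.58 (adjusted p = 0.0715), whereas another *Mbp* probe, under the limit in 6 of 8 tumors, was at least 35.2-fold and 36.0-fold lower (adjusted p = 4.72e-07 and 3.21e-07). The *Mbp* locus also gives golli transcripts from an upstream start site, in cells outside the lineage too, and which transcripts each probe detects was not examined. The second *Cnp* probe (log2 fold change -2.65 in *NdpKO;Ptch+/-* MBs and at least 7.21-fold in *Ptch+/-* MBs) and 3 further *Mobp* probes with signal were lower in both tumor genotypes. The second *Mog* probe passed in *Ptch+/-* MBs (adjusted p = 0.0395) but not in *NdpKO;Ptch+/-* MBs (adjusted p = 0.0512).

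**Figure D2:**
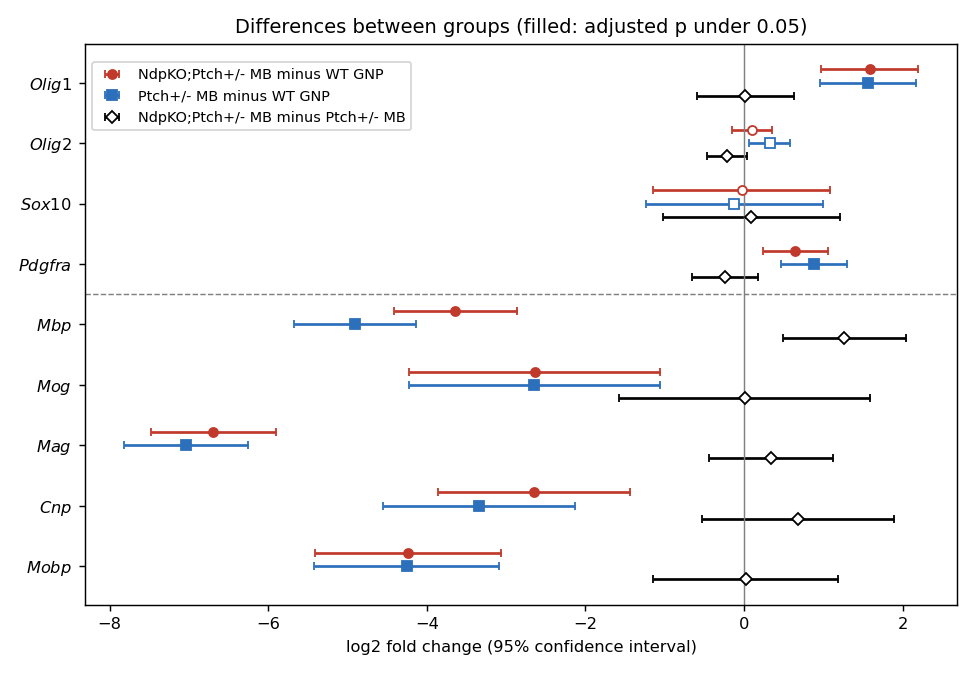
Log2 fold change of each gene with its 95% confidence interval from limma, for both tumor genotypes against WT GNPs and for the tumor genotypes against each other, with filled symbols at an adjusted p under 0.05. The filled symbols lie right of 0 for *Olig1* and *Pdgfra* and left of 0 for the 5 myelin genes, and no comparison between the tumor genotypes is filled. Values of *Mog*, *Mag* and *Mobp* are fitted values that include signals under the limit.

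On each array, the precursor and myelin genes moved apart in all 8 tumors. The mean deviation of the 4 precursor genes from their WT GNP means was 0.29 to 0.74 on the log2 scale in *NdpKO;Ptch+/-* MBs and 0.01 to 1.11 in *Ptch+/-* MBs. That of the 5 myelin genes was -4.35 to -3.63 and -4.76 to -4.25. The first minus the second was 4.62, 4.64, 4.28 and 4.65 in *NdpKO;Ptch+/-* MBs, with a mean of 4.55 ± 0.18 (SD, n = 4 arrays), and 4.78, 5.26, 5.39 and 4.97 in *Ptch+/-* MBs, with a mean of 5.10 ± 0.28 (SD, n = 4 arrays). Among WT GNPs it ran from -0.61 to 1.01, with the highest value in WT GNP 1. These are descriptions without a test, and signals at the floor make the myelin shift smaller than it may be.

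**Figure D3:**
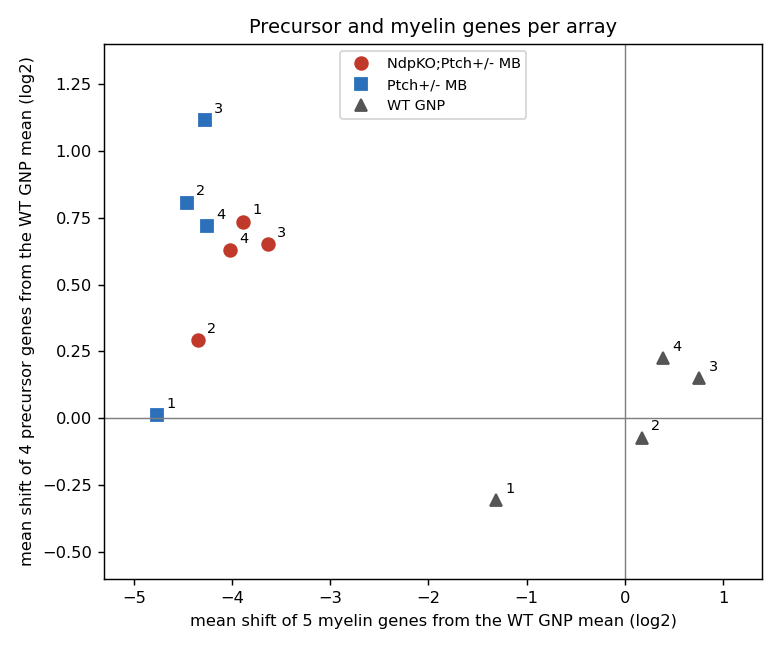
Mean shift of the 4 precursor genes (vertical axis) against that of the 5 myelin genes (horizontal axis) from the WT GNP means, log2 scale, 1 point per array with its replicate number. The tumors lie at -4.76 to -3.63 on the myelin axis, and the WT GNP samples at -1.31 to 0.76.

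Between the tumor genotypes none of the 9 genes passed the test, where 0.808% of all genes were higher and 1.26% lower in *NdpKO;Ptch+/-* MBs. *Mbp* was the only one with an unadjusted p under 0.05. Its signals did not overlap, the lowest *NdpKO;Ptch+/-* MB reading 8.69 and the highest *Ptch+/-* MB 8.68, and the log2 difference was 1.26 (SE 0.35, 95% confidence interval 0.49 to 2.04), a ratio of 2.40, with an adjusted p of 0.132. It passed in 1 of 15 alternative fits, when probes under the limit on all arrays were left out (adjusted p = 0.0409), over a range of adjusted p up to 0.600. With the mean of its 5 probes the difference shrank to 0.29. The second *Mbp* probe pointed the other way, at -0.32 (adjusted p = 0.564). The intervals of the other genes with signal were -0.59 to 0.63 for *Olig1*, -1.02 to 1.21 for *Sox10*, -0.65 to 0.18 for *Pdgfra* and -0.53 to 1.89 for *Cnp*. None of the 21 probes of the 9 genes passed between the genotypes.

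Further genes of the lineage were read from 5 lists by stage and function. Of 15 other precursor genes, 14 had a probe used here and 11 reached the limit. In *NdpKO;Ptch+/-* MBs 4 were higher and 2 lower than in WT GNPs, and in *Ptch+/-* MBs 3 were higher and 2 lower, beside backgrounds of 7.69% and 7.98%, and of 10.3% and 10.9%. Higher in both were *Cspg4*, which encodes the NG2 proteoglycan of precursors and pericytes (at least 2.92-fold and 2.26-fold), *Ptprz1*, a receptor tyrosine phosphatase (log2 fold change 1.41 and 1.49), and *Bcan*, the matrix proteoglycan brevican (1.20 and 0.97). *C1ql1*, a secreted C1q-like protein, was under the limit in all WT GNP samples and at least 5.52-fold higher in *NdpKO;Ptch+/-* MBs (adjusted p = 0.037), and had an adjusted p of 0.0828 in *Ptch+/-* MBs. *Vcan*, the proteoglycan versican, and *Cntn1*, a contactin that neurons make too, were lower in both. The counts of genes higher changed whichever array was left out. With 1 array left out, 2 to 3 genes were higher in *NdpKO;Ptch+/-* MBs, with 2 when *NdpKO;Ptch+/-* MB 1, 2 or 4 or WT GNP 1 or 3 was absent. In *Ptch+/-* MBs 6 were higher without *Ptch+/-* MB 1 and 0 to 1 without any other array. The 2 genes lower in *NdpKO;Ptch+/-* MBs became 0 without *NdpKO;Ptch+/-* MB 1, 2 or 3 and 1 without each other array but WT GNP 3, and in *Ptch+/-* MBs 1 without *Ptch+/-* MB 2 or WT GNP 1. The median log2 fold change over the 14 genes was 0.57 and 0.55.

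Among genes of committed, premyelinating oligodendrocytes, *Enpp6* and *Bmp4* were far lower in tumors and others such as *Bcas1* were not called. Of 10 such genes, 9 reached the limit. In *NdpKO;Ptch+/-* MBs 5 were lower, none was higher and 5 were not called, beside 7.98% of all genes lower and 7.69% higher. In *Ptch+/-* MBs 6 were lower and none higher, beside 10.9% and 10.3%. *Enpp6*, a choline phosphodiesterase of newly forming oligodendrocytes, had log2 signals of 10.18, 10.43, 10.68 and 10.86 in WT GNPs and 4.13 to 4.32 in the tumors, and was at least 65.7-fold lower in both genotypes (adjusted p = 8.91e-10 and 7.62e-10). *Bmp4*, a secreted ligand that premyelinating cells express, lay at 7.71 to 8.44 in WT GNPs and under the limit in all tumors, at least 13.0-fold lower in both. The groups were far apart for both genes. *Nkx2-2*, a homeodomain factor of early differentiation, was lower at a log2 fold change of -1.65 in *NdpKO;Ptch+/-* MBs (adjusted p = 0.0419) and at least 5.76-fold lower in *Ptch+/-* MBs (adjusted p = 0.00368). *Tcf7l2*, a Wnt effector that peaks in premyelinating cells, was lower in *Ptch+/-* MBs (at least 4.73-fold, adjusted p = 0.00221) and had an adjusted p of 0.157 in *NdpKO;Ptch+/-* MBs. *Fyn*, a Src-family kinase, was lower in both but stayed under the limit in all tumors, against 4.37 to 4.58 in WT GNPs. *Tns3*, a tensin, was lower in *NdpKO;Ptch+/-* MBs (-1.45, adjusted p = 0.0186) and had an adjusted p of 0.0591 in *Ptch+/-* MBs. With 1 array left out, 5 to 6 genes were lower in *Ptch+/-* MBs and 3 to 4 in *NdpKO;Ptch+/-* MBs, with 3 when *NdpKO;Ptch+/-* MB 1 or 4 or WT GNP 1 or 2 was absent.

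*Bcas1*, which marks cells that are starting to myelinate, lay at 12.60 to 13.06 on all 12 arrays and was not called in any comparison. *Gpr17*, a receptor that is on only between the precursor and the myelinating stage, had log2 signals of 8.94, 8.56, 8.66 and 9.07 in *NdpKO;Ptch+/-* MBs, 4.94, 8.72, 8.80 and 7.87 in *Ptch+/-* MBs and 9.60, 9.70, 10.26 and 10.59 in WT GNPs. Each tumor was below each WT GNP sample. The log2 difference was -1.23 (adjusted p = 0.357) in *NdpKO;Ptch+/-* MBs and -2.46 (SE 0.75, adjusted p = 0.0496) in *Ptch+/-* MBs, where *Ptch+/-* MB 1 alone read near background.

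Among 26 other myelin genes, 22 had a probe used here, and 13 of these reached the limit. In each genotype 6 were lower and 2 higher than in WT GNPs, beside 7.98% of all genes lower and 7.69% higher in *NdpKO;Ptch+/-* MBs, and 10.9% and 10.3% in *Ptch+/-* MBs. The share higher was thus near that of all genes. The 5 lower ones with signal make the membrane and lipids of the sheath. *Cldn11*, the claudin of its tight junctions, had log2 signals of 12.33 to 13.09 in WT GNPs and 9.61 to 10.28 in the tumors, with log2 fold changes of -2.99 and -2.94 (SE 0.19, adjusted p = 8.1e-06 and 7.65e-06). *Ugt8a*, which makes galactosylceramide, was lower at a log2 fold change of -3.16 in *NdpKO;Ptch+/-* MBs and at least 19.5-fold lower in *Ptch+/-* MBs. *Gal3st1*, which turns that lipid into sulfatide, was at least 9.22-fold and 8.42-fold lower, *Fa2h*, which hydroxylates its fatty acids, at least 15.8-fold and 16.6-fold, and the tetraspanin gene *Tspan2* at least 9.68-fold and 9.71-fold. *Nkx6-2* also passed but lay under the limit on all arrays. Counts of genes lower stayed at 6 in *NdpKO;Ptch+/-* MBs and at 6 to 7 in *Ptch+/-* MBs when each array was left out in turn.

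The 3 myelin genes called higher in at least 1 genotype are made by other cells as well. Other listed genes may be too, whichever way they went, and the part of other cells was not tested for any of them. *Trf*, the iron carrier transferrin, which choroid plexus also makes, was higher by 0.95 in *NdpKO;Ptch+/-* MBs (adjusted p = 0.0313) and by 2.06 in *Ptch+/-* MBs (adjusted p = 0.000387) on the log2 scale. *Car2*, carbonic anhydrase II, was at least 5.64-fold higher in *NdpKO;Ptch+/-* MBs (adjusted p = 0.0264) and *Plekhb1* higher by 1.50 in *Ptch+/-* MBs (adjusted p = 0.0264). With 1 array left out, the count of 2 in *NdpKO;Ptch+/-* MBs held only without *NdpKO;Ptch+/-* MB 2, was 1 without WT GNP 3 and was 0 without each of the other 6, and in *Ptch+/-* MBs it was 1 to 3 (1 without *Ptch+/-* MB 3, WT GNP 1 or WT GNP 2, and 3 without *Ptch+/-* MB 2). The choroid plexus gene *Ttr* varied within groups, at 4.13 to 11.19 in *NdpKO;Ptch+/-* MBs, 4.14 to 14.79 in *Ptch+/-* MBs and 8.71 to 11.88 in WT GNPs, and its part in these results was not tested. The mean log2 signal of the 5 choroid plexus genes that had a probe used here was 6.35 to 8.23, 5.96 to 9.51 and 6.94 to 7.58 in the 3 groups, with *Clic6* higher in both tumor genotypes.

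**Figure D4:**
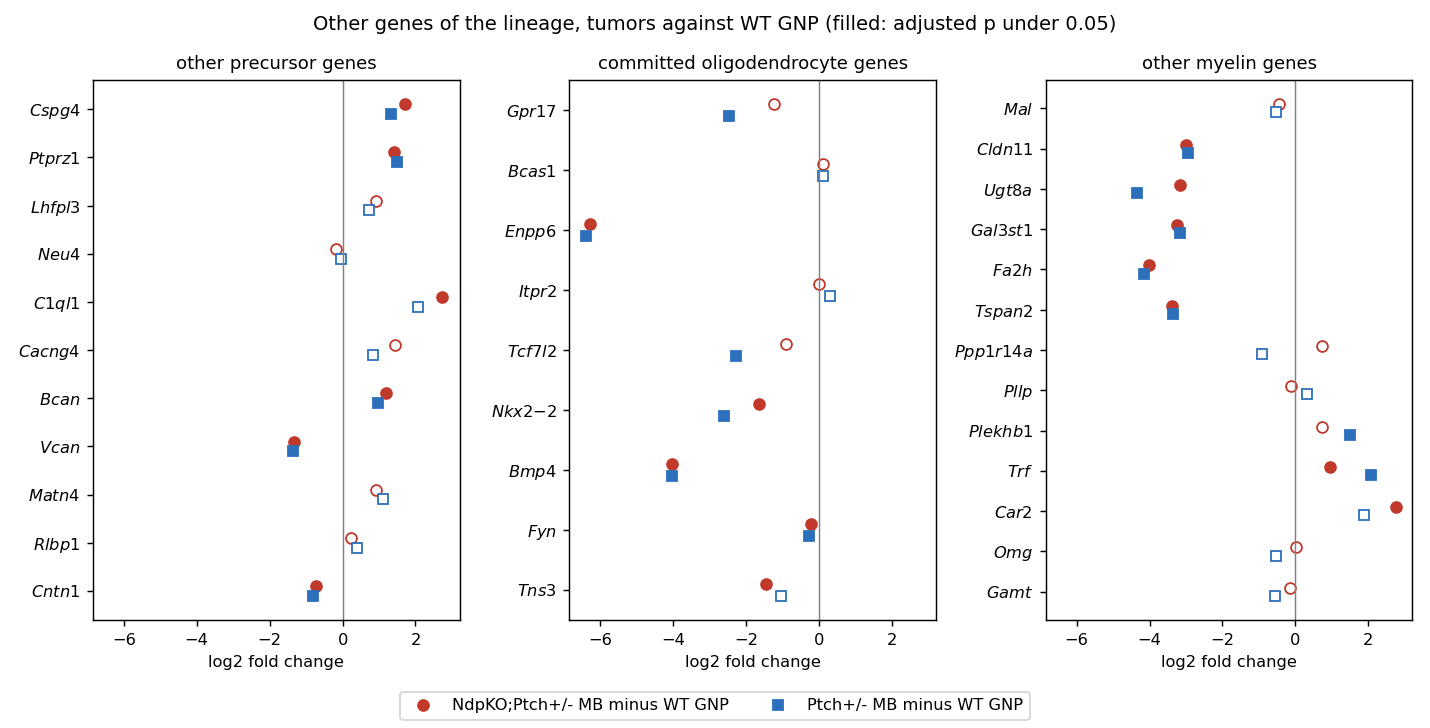
Log2 fold change against WT GNPs of the listed precursor, committed and myelin genes that reached the background limit on at least 1 array, with filled symbols at an adjusted p under 0.05. Filled symbols lie on the right for the precursor genes *Cspg4*, *Ptprz1* and *Bcan*. They lie on the left for *Enpp6*, *Bmp4* and the sheath genes from *Cldn11* to *Tspan2*. Other genes of the same lists go the other way. The precursor genes *Vcan* and *Cntn1* are filled on the left in both genotypes. Of the myelin genes, *Trf* is filled on the right in both, *Car2* in *NdpKO;Ptch+/-* MBs only and *Plekhb1* in *Ptch+/-* MBs only. Positions include signals under the limit.

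The regulators of differentiation and the PDGF genes moved one by one. Of 14 regulators that had a probe used here (16 were listed), 2 were higher and 1 lower in *NdpKO;Ptch+/-* MBs, beside 7.69% and 7.98% of all genes, and 3 higher and 2 lower in *Ptch+/-* MBs, beside 10.3% and 10.9%. *Zeb2*, a repressor needed for myelination that microglia express too, rose in both (log2 fold change 0.97 and 1.03, SE 0.12). *Sox8*, a relative of *Sox10*, was at least 4.80-fold higher in *NdpKO;Ptch+/-* MBs, with signals of 7.28, 7.99, 7.33 and 6.11 against 4.37 to 5.44 in WT GNPs (adjusted p = 0.025), and had an adjusted p of 0.228 in *Ptch+/-* MBs. *Sox5*, which opposes SOX10 in precursors, was higher in *Ptch+/-* MBs (0.84, adjusted p = 0.0059), as was *Chd8*, a chromatin remodeller (0.52, adjusted p = 0.0121). *Id4*, an inhibitor of helix-loop-helix factors, was at least 5.14-fold lower in *Ptch+/-* MBs (adjusted p = 0.0268). *Prrx1* was lower in both but under the limit on all arrays. *Myrf*, the regulator that myelin genes depend on, was under the limit on all arrays and gave no level. With 1 array left out, 1 to 2 regulators were higher in *NdpKO;Ptch+/-* MBs (1 without *NdpKO;Ptch+/-* MB 1, 2 or 3 or WT GNP 1 or 2) and 3 in *Ptch+/-* MBs, and 1 to 2 were lower in *NdpKO;Ptch+/-* MBs (2 without *NdpKO;Ptch+/-* MB 3) and 0 to 2 in *Ptch+/-* MBs (0 without *Ptch+/-* MB 1 or 2 or WT GNP 3, and 1 without *Ptch+/-* MB 4 or WT GNP 1 or 4).

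Of 5 PDGF genes, *Pdgfa* was higher and *Pdgfc* lower in each genotype. Beside them, 7.69% of all genes were higher and 7.98% lower in *NdpKO;Ptch+/-* MBs, and 10.3% and 10.9% in *Ptch+/-* MBs. *Pdgfa*, the ligand of the *Pdgfra* product, had log2 signals of 12.07, 11.62, 11.85 and 11.56 in *NdpKO;Ptch+/-* MBs, 12.43, 11.98, 12.51 and 12.77 in *Ptch+/-* MBs and 10.63, 10.79, 10.42 and 10.22 in WT GNPs. All tumors lay above all WT GNP samples. Its log2 fold change was 1.26 (SE 0.19, adjusted p = 0.00196) in *NdpKO;Ptch+/-* MBs and 1.91 (SE 0.19, adjusted p = 0.000122) in *Ptch+/-* MBs. *Pdgfc* was at least 6.49-fold and 7.30-fold lower, and *Pdgfb* was not called.

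Between the tumor genotypes no gene of the 5 lists passed the test, where 0.808% of all genes were higher and 1.26% lower. The lists held 14, 10, 22, 14 and 5 genes with a probe used here. Of these, 8 had an unadjusted p under 0.05, of which *Pdgfrb* lay under the limit. The share of all genes under that p was not counted, so the 8 are a description only. The log2 differences, *NdpKO;Ptch+/-* MBs minus *Ptch+/-* MBs, were -1.11 for *Trf* (SE 0.24, adjusted p = 0.0671), -0.78 for *Sox5* (SE 0.16, adjusted p = 0.0518), -0.65 for *Pdgfa* (adjusted p = 0.156) and -0.37 for *Chd8* (adjusted p = 0.188). They were 1.38 for *Tcf7l2* (SE 0.37, adjusted p = 0.12), 1.66 for *Ppp1r14a*, an inhibitor of a protein phosphatase (adjusted p = 0.141), and 1.17 for *Ugt8a* (adjusted p = 0.298). The calls turned on 1 array for *Tcf7l2* and *Sox5*, which passed without *NdpKO;Ptch+/-* MB 4 (adjusted p = 0.0441 and 0.00554).

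Single arrays stood low for the lineage as a whole. WT GNP 1 was the lowest of its group for 8 of the 8 members with signal there and for 32 of 52 lineage genes (61.5%), beside 24.0% of all genes with signal. *Ptch+/-* MB 1 was the lowest of its group for 4 of 6 members and for 27 of 47 lineage genes (57.4%, beside 24.7% of all genes), and *NdpKO;Ptch+/-* MB 2 for 5 of 6 members and for 24 of 48 (beside 31.5% of all genes). These arrays were singled out after their values were seen, so the shares are descriptions. *Ptch+/-* MB 1 was also the array with the highest *Ttr* (14.79), *Kl* (6.87), *Dcn* (11.88) and *Lum* (8.96), genes of choroid plexus and meninges. Within its group it also read highest for a list of endothelial genes, at a mean log2 signal of 6.87 against 5.82 to 6.04. The same held for the neuronal gene *Slc17a7*, at 6.10 against 4.17 to 4.22. Of the same list of mature cerebellar neuron genes, *Cbln1* also read highest there, but *Syt1*, *Pcp2* and *Pvalb* did not. The mean log2 signal of that list was 6.40 in *Ptch+/-* MB 1 against 5.89 to 6.36 in the rest of its group. The part of any of these in its low lineage signals was not tested.

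Across the 8 tumors, with the mean of each genotype removed, *Sox10* and *Cnp* varied together (Pearson's r = 0.947, Spearman's rho = 0.881). The value was 0.855 without the 2 tumors farthest from the median of *Sox10*, and 0.948 without *Ptch+/-* MB 1. *Sox10* and *Olig1* gave r = 0.892 (rho = 0.643). It was 0.303 without the 2 tumors farthest from the median of *Olig1*, and 0.546 without *Ptch+/-* MB 1, so this relation rested on few tumors. *Mbp* varied apart from both, with r = 0.00 to *Sox10* and 0.06 to *Cnp*. All 10 pairs of the 5 members with signal in every tumor were looked at, each over the same 8 arrays, which share the normalisation, and the values are descriptions without a p.

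Among 7649 genes with signal in all 8 tumors, the one most like *Sox10* was *Gpr17* (r = 0.984, rho = 0.929, and r = 0.821 without *Ptch+/-* MB 1), followed by *Ppp1r15a* (0.971) and *Gltp* (0.960). The genes most like *Cnp* were *6330509M05Rik* (0.959), *Lgmn* (0.950) and *Arsb* (0.947), and those most like *Mbp* were *Ptbp1* (0.969), *Zfp276* (0.968) and *Specc1* (0.965). *Olig1* had *Nap1l4* (0.982), *Inppl1* (0.973) and *Csf2ra* (0.970), and *Pdgfra* had *Map1s* (0.981), *Gpat4* (0.980) and *Letmd1* (0.978). Of these 15 genes *Gpr17* alone is in one of the lineage lists, and with 8 arrays many genes reach such values.

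**Figure D5:**
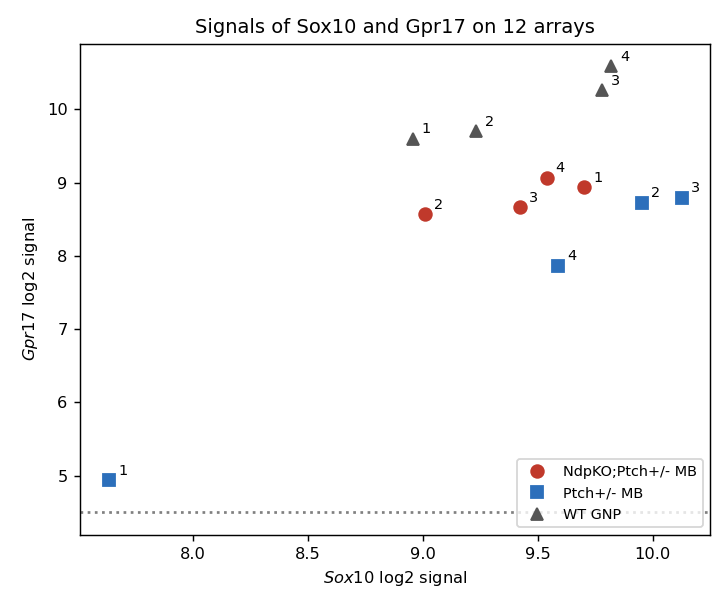
Log2 signal of *Gpr17* (vertical axis) against that of *Sox10* (horizontal axis), 1 point per array with its replicate number, and the background limit of 4.5 as a dotted line. *Ptch+/-* MB 1 lies at 7.63 and 4.94, the other tumors between 9.01 and 10.13 on the horizontal axis, and WT GNPs above the tumors on the vertical axis.

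Markers of other cells moved between tumors and WT GNPs beside the lineage genes. Counts stand beside 7.69% of all genes higher and 7.98% lower in *NdpKO;Ptch+/-* MBs, and 10.3% and 10.9% in *Ptch+/-* MBs. Some of the small counts are near these shares. Of 8 microglia genes 5 were higher in each tumor genotype, and their mean log2 signal was 7.15 to 7.64 in *NdpKO;Ptch+/-* MBs, 7.19 to 8.13 in *Ptch+/-* MBs and 5.02 to 5.42 in WT GNPs. *Aif1*, a microglia gene under the limit in 2 of 4 WT GNP samples, was at least 19.6-fold and 24.8-fold higher. Of 10 astrocyte and Bergmann glia genes 3 were higher in each, with *Gja1* lower in *Ptch+/-* MBs, at a mean log2 signal of 8.47 to 9.13, 8.18 to 9.70 and 8.51 to 8.79 in the 3 groups. Of 12 granule progenitor genes 2 were higher and 1 lower in *NdpKO;Ptch+/-* MBs, and 4 higher and 2 lower in *Ptch+/-* MBs, at 8.69 to 8.76, 8.75 to 8.94 and 8.72 to 8.89. Of 10 mature cerebellar neuron genes 5 were lower in each and *Pvalb* was higher in *NdpKO;Ptch+/-* MBs, at 6.27 to 6.62, 5.89 to 6.40 and 6.81 to 7.23. Among the 5, *Camk2a* was under the limit on all arrays. Of 7 endothelial genes 1 was lower in *NdpKO;Ptch+/-* MBs and 4 in *Ptch+/-* MBs, at 6.56 to 7.48, 5.82 to 6.87 and 7.04 to 7.69.

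Schwann cells, which make peripheral myelin, share *Mbp*, *Mag*, *Cnp* and *Sox10* with oligodendrocytes. Of 10 Schwann cell genes 8 had a probe used here, and *Ncmap*, *Pmp2*, *Dhh* and *Erbb3* were under the limit on all 12 arrays, WT GNPs included. The rest had clear signal in WT GNPs. *Egr2* lay at 9.72 to 10.40 there, *Ngfr* at 9.91 to 10.72, *Pmp22* at 7.56 to 8.25 and *Drp2* at 7.49 to 8.14. *Pmp22* was not called against WT GNPs. *Egr2* and *Ngfr* were lower in *NdpKO;Ptch+/-* MBs and *Drp2* was lower in *Ptch+/-* MBs, beside 7.98% and 10.9% of all genes. The mean log2 signal of the 8 genes was 5.95 to 6.16 in *NdpKO;Ptch+/-* MBs, 5.93 to 6.43 in *Ptch+/-* MBs and 6.54 to 6.66 in WT GNPs. Between the tumor genotypes, *Emcn* of the endothelial list was higher in *NdpKO;Ptch+/-* MBs (log2 fold change 1.95, adjusted p = 0.0321) and *Ccnd2* of the granule progenitor list lower (-0.85, adjusted p = 0.028). These were the 2 calls over all 8 lists of other cell types, which held 5 to 12 genes each with a probe used here. Of all genes, 0.808% were higher and 1.26% lower, and so small a count is not read as more than those shares. The part of any of these cells in the lineage results was not tested.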

How the data were processed

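RNA from 4 *NdpKO;Ptch+/-* MBs, 4 *Ptch+/-* MBs and 4 WT GNP samples was measured on 12 single-channel BeadChip arrays. The authors exported signals from BeadStudio and ran neqc from limma, which subtracts a background fitted to the negative controls, quantile-normalises and takes log2, and the deposited log2 values of 45281 probes run from 4.09 to 16.04. Quantile normalisation gives every array the same distribution, so differences in total RNA cannot be seen. The authors annotated with illuminaMousev2.db, and their limma version is not given in the sources used here. Symbols were taken from the platform annotation, which gives 1 symbol to 34885 probes, several to 18 and none to 10378.

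Values were analysed in R 4.3.3 with limma 3.58.1, in a group-means model over all 12 arrays (lmFit, eBayes, no covariates), with Benjamini-Hochberg adjustment over all probes within a comparison. This model was tested on simulated data. Members and lists were chosen with earlier results of these data known, as was the background limit of 4.5. Where arrays of the dimmer group lie under it, those signals were raised to the limit and a fold is given as "at least". The number of arrays, 4 per group, limits the precision. Named were all members, up to 4 genes of each lineage list and up to 3 of each other list by smallest p between the tumor genotypes, and the 3 genes most like each member. Genes called against WT GNPs were named to complete counts, and *Vcan*, *Bcas1*, *Fyn*, *Myrf*, *Prrx1*, *Aif1*, *Clic6*, *Zic1*, *Barhl1*, *Atoh1*, *Kl*, *Lum*, the Schwann cell genes under the limit and others outside that rule were named after their values were seen. Alternatives were a probe filter, array weights, an intensity trend combined with a robust prior, the 2 groups alone, cyclic loess, the mean of a gene's probes, the replicate number as a block, a threshold of 0.01 and leaving out each array. Leaving out arrays for the list counts was added after the values were seen. Promoter windows came from RefSeq (GRCm38.p6).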

Additional observations from a re-analysis of the deposited data

Results flagged for a closer look

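In 5 of 27 sets of 4 arrays (9 genes in 3 groups), 1 array lay far from the other 3 by Dixon's ratio of the gap to the whole range, past the 95% critical value for 4 values. Chance alone would single out about 1 in 20 such sets. *Pdgfra* was low in *NdpKO;Ptch+/-* MB 2, at 11.52 against 12.11 to 12.19 (ratio 0.888). *Mbp* was low in WT GNP 1, at 12.38 against 13.15 to 13.31 (ratio 0.831). *Mag* was high in *NdpKO;Ptch+/-* MB 3, at 5.56 against 4.25 to 4.36 (ratio 0.916), the only tumor in which it reached the background limit. *Mag* in *Ptch+/-* MB 4 (4.46 against 4.22 to 4.24, ratio 0.910) and *Mobp* in *NdpKO;Ptch+/-* MB 3 (4.22 against 4.12 to 4.14, ratio 0.887) differed only under the limit. A second *Mobp* probe also read highest in *NdpKO;Ptch+/-* MB 3, at 5.34 against 4.16 to 4.20.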

How the results depend on the processing

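Against WT GNPs, the calls of *Olig1*, *Mbp*, *Mag*, *Cnp* and *Mobp* held in all 15 alternative fits of each comparison, and so did that of *Pdgfra* in *Ptch+/-* MBs. The number of members called in *NdpKO;Ptch+/-* MBs fell from 7 to 4 at a threshold of 0.01 and was 5 to 6 with 1 array left out, and in *Ptch+/-* MBs it was 6 to 7. Between the tumor genotypes it was 0, and 1 (*Mbp*, adjusted p = 0.0409) with probes under the limit on all arrays left out, where fewer probes were tested. The call of *Pdgfra* in *NdpKO;Ptch+/-* MBs was lost with cyclic loess (adjusted p = 0.0514) and without 7 of the 8 arrays in turn, that of *Mog* with array weights (0.0577 in *NdpKO;Ptch+/-* MBs and 0.0505 in *Ptch+/-* MBs) and with the 2 groups alone (0.105 and 0.0905). *Olig2* in *Ptch+/-* MBs passed with an intensity trend (0.0394) and without *Ptch+/-* MB 2 (0.0245), while under the limit on most arrays. With the mean of a gene's probes, fitted log2 fold changes of *Mbp* moved to -2.61 in *NdpKO;Ptch+/-* MBs, -2.90 in *Ptch+/-* MBs and 0.29 between the genotypes, and those of *Mobp* to -3.16 and -3.25. The causes were not tested. Differences near 0 changed sign: between the genotypes *Olig1* (0.02) read -0.000555 with cyclic loess and -0.18 to 0.12 with 1 array left out, *Sox10* (0.09) -0.47 to 0.36 and *Mobp* (0.02) -0.0016 to 0.0298. Against WT GNPs *Sox10* read 0.038 in *NdpKO;Ptch+/-* MBs with array weights, and with 1 array left out -0.19 to 0.11 in *NdpKO;Ptch+/-* MBs and -0.39 to 0.44 in *Ptch+/-* MBs. The mean precursor change minus the mean myelin change kept its sign throughout, at -0.66 to -0.33 between the genotypes, 4.08 to 4.88 in *NdpKO;Ptch+/-* MBs and 4.41 to 5.44 in *Ptch+/-* MBs.

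Samples of different groups share replicate numbers, but arrays of the same number deviated together little (r = -0.18 to 0.11). Only *Ptch+/-* MB 1 against WT GNPs matched its own number best. The numbers were therefore not treated as pairs, although low correlations cannot settle whether such samples were handled together. With the replicate number as a block, 5 members were called in *NdpKO;Ptch+/-* MBs and 6 in *Ptch+/-* MBs against WT GNPs. *Pdgfra* in *NdpKO;Ptch+/-* MBs (adjusted p = 0.103) and *Mog* (0.0643 and 0.0505) were no longer called, and no other call of a member changed. Signal limits *Olig2*, *Mog*, *Mag* and *Mobp* in tumors, where differences under the limit cannot be seen.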
